A study of Caenorhabditis elegans with 205 samples.

Results

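The 9 genes of PDF, nematocin and glycoprotein hormone signalling are described here across sorted neurons of Caenorhabditis elegans, chosen by symbol from the 46927 genes of the deposited count table. All 9 symbols were found. They are the ligand genes pdf-1, pdf-2, ntc-1, gpla-1 and gplb-1 and the receptor genes pdfr-1, ntr-1, ntr-2 and fshr-1. The genes were chosen with their levels across the neuron classes known, so those levels are given as a description, with no test. Each library is bulk RNA from neurons of 1 class isolated by fluorescence-activated cell sorting, and each of the 53 classes has from 2 to 6 libraries, most often 4. All worms were grown on nutrient agar with the E. coli strain NA22. The 180 libraries of 46 classes are labelled as untreated, and the other 25 libraries, of CEP, DVB, HSN, PVP, PVQ, RME and SIA, carry no treatment label and no note of the library kit. Strain, reporter transgene, sex and age are not given in the labels, and nothing says whether libraries of a class came from separate cultures, so the spread between them may be partly technical.

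Pigment-dispersing factor (PDF) peptides are made from the precursors of pdf-1 and pdf-2 and act through pdfr-1, a receptor of the secretin family that signals mainly through Gs and cyclic AMP and is known in C. elegans for its part in roaming and mate searching. Nematocin, the precursor product of ntc-1, is the worm's relative of vasopressin and oxytocin, and ntr-1 and ntr-2 encode its receptors, which have been studied in taste learning and in male mating. The genes gpla-1 and gplb-1 encode the alpha-type and beta-type subunits of a glycoprotein hormone related to vertebrate thyrostimulin, and fshr-1 encodes a leucine-rich-repeat receptor related to the vertebrate receptors of follicle-stimulating, luteinizing and thyroid-stimulating hormones, known in worms for roles in intestinal stress responses and at the neuromuscular junction.

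Levels are given as CPM, the deposited count of a gene scaled to a library of 1000000 counts after the library sizes had been adjusted with TMM factors, and a class level is the mean over its libraries. Total counts ran from 798303 to 24647021 per library, with a median of 4692492, and ribosomal RNA took 9.77% to 79.2% of the counts. A count of 3, the most that a count of 0 allows, was worth 0.643 CPM in the median library and 6.39 CPM in the shallowest, AIYr67. Of 60 pairs of a class and a marker gene that could be looked up, the marker's highest class mean was in its own class for 37 pairs, and its own class was among the highest 3 for 53. Genes typical of non-neuronal tissues, 26 in all, summed to 150.0 to 32010 CPM per library, and 75 libraries had a larger sum of these than of 8 pan-neuronal genes. In such bulk libraries fewer cells of a type and less RNA per cell cannot be told apart. A difference among classes was the rule in this table, since 95.4% of the 20427 tested genes passed an F-test over all classes (edgeR quasi-likelihood, adjusted p under 0.05).

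**Figure D1:**
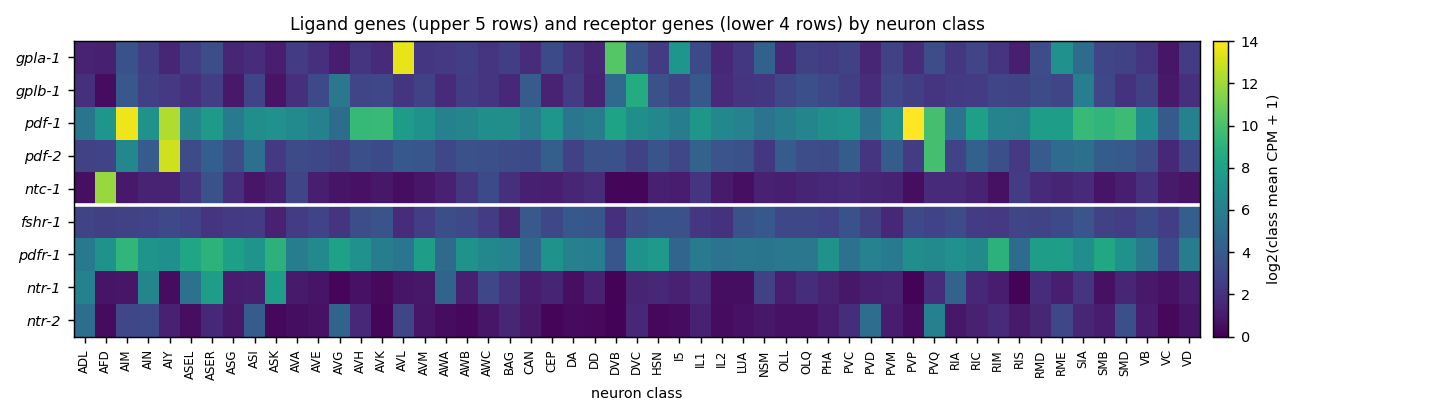
Class means of the 9 genes as log2(CPM + 1), with ligand genes in the upper 5 rows, receptor genes in the lower 4 rows and the 53 neuron classes as columns. The genes gpla-1, pdf-2 and ntc-1 have class means of at least 100 CPM in 4, 2 and 1 columns, whereas pdf-1 and pdfr-1 are coloured in nearly all columns.

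The PDF precursor gene pdf-1 (WBGene00020317, chromosome III, 6909590 to 6912481, minus strand) was highest in PVP, AIM and AIY and was found at a lower level in nearly every other class. The PVP libraries had 31928, 18501, 11098 and 4720 CPM, a mean of 16561 ± 11690 CPM (SD, n = 4). The AIM libraries had 5055, 3262, 41558 and 2663 CPM, a mean of 13135 ± 18976 CPM (SD, n = 4), so 1 library, AIMr192, carried most of that mean, which was 3660 CPM without it. The AIY libraries had 4166, 2753 and 8537 CPM, a mean of 5152 ± 3015 CPM (SD, n = 3). The libraries of these 3 classes overlapped, so their order is not resolved beyond the spread between libraries, and all of them lay above the highest library of PVQ, which came next at 945 ± 816 CPM (SD, n = 4), or 614 CPM without PVQr233. Without PVPr2 the mean of PVP was 11439 CPM and AIM led. SMD, AVK, SIA, AVH and SMB followed with means of 789, 706, 688, 675 and 595 CPM, and without SIAr243 the mean of SIA was 399 CPM. The median class mean of pdf-1 was 118.7 CPM, 30 of 53 classes had a mean of at least 100 CPM, and no library had a count of 0. Counting a gene as present where every library of a class had at least 10 CPM, pdf-1 was present in 51 classes, all but AVG and VC. Presence so counted was not shown to be expression in the class. Some abundant marker genes had median class means above that level, such as unc-25 at 36.9, flp-1 at 26.3 and daf-7 at 23.8 CPM. Others, such as gcy-8 at 1.09 CPM, did not.

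The second PDF precursor gene, pdf-2 (WBGene00018590, chromosome X, 2163384 to 2164069, plus strand), was far narrower in its high levels. The AIY libraries had 9626, 4274 and 10263 CPM, a mean of 8054 ± 3289 CPM (SD, n = 3). The PVQ libraries had 1985, 61.1, 1617 and 71.8 CPM, a mean of 934 ± 1013 CPM (SD, n = 4). The AIM libraries had 109.7, 16.1, 183.8 and 42.7 CPM, a mean of 88.1 ± 75.02 CPM (SD, n = 4). AIY was 8.63 times PVQ and its libraries did not overlap with those of PVQ, whereas the PVQ libraries fell into a high and a low pair and overlapped with AIM. Without PVQr233 the mean of PVQ was 583 CPM, and without AIMr192 that of AIM was 56.2 CPM. AIY held 83.6% of the sum of the 53 class means, a share exceeded by 3.51% of the tested genes. The median class mean was 9.69 CPM. At 10 CPM in every library pdf-2 was present in 10 classes (AIY, PVQ, AIM, SIA, RME, IL1, CEP, PVM, RMD and SMD), and in 7 of them, from SIA down to SMD, the mean was 14.7 to 34.8 CPM. The median class means of the markers flp-1 and daf-7, given above, lie in that range.

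The nematocin gene ntc-1 (WBGene00044568, chromosome X, 4866098 to 4866690, plus strand) was the most restricted of the 9 and was high in a single class, AFD, the main thermosensory neurons. The 5 AFD libraries had 4031, 3743, 2357, 3919 and 4604 CPM, a mean of 3731 ± 833 CPM (SD, n = 5). ASER, the next class, had 10.1 ± 5.0 CPM (SD, n = 4), so AFD was 369 times as high, and the highest library outside AFD, in AWC, had 17.6 CPM. AFD held 97.4% of the sum over classes, and only 0.255% of the tested genes had a larger share in their top class. The AFD libraries also carried the AFD receptor guanylyl cyclase gene gcy-8 at 570 to 2075 CPM and the homeobox gene ttx-1 at 943 to 2234 CPM. In the order of libraries given above, gcy-8 was at 2075, 570, 1477, 1790 and 1539 CPM. In that order ttx-1 was at 2234, 943, 1305, 2109 and 2121 CPM. The part of sort purity in the spread of ntc-1 was not tested.

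The alpha-type subunit gene gpla-1 (WBGene00001466, chromosome V, 11936505 to 11937810, minus strand) was highest in the pair of classes that drive the expulsion step of defecation, AVL and DVB. The AVL libraries had 12450, 10938 and 11093 CPM, a mean of 11494 ± 832 CPM (SD, n = 3). The DVB libraries had 1177, 1312 and 1365 CPM, a mean of 1284 ± 96.96 CPM (SD, n = 3). The libraries of AVL lay 8.95 times above those of DVB on average, with no overlap, and those of DVB did not overlap with the next class. That class, the pharyngeal neuron I5, had 60.2, 330, 197.8 and 72.9 CPM, a mean of 165.1 ± 126.1 CPM (SD, n = 4), and overlapped with RME at 134.1 ± 40.1 CPM (SD, n = 3). SIA, at 30.5 ± 23.9 CPM (SD, n = 4) and 19.6 CPM without SIAr242, was the fifth and last class with gpla-1 in every library at 10 CPM or more. The median class mean was 4.35 CPM, and AVL held 86.2% of the sum over classes. AVL, DVB and RME are GABAergic classes, and the GABA synthesis gene unc-25 had its highest class mean in AVL, at 3072 ± 617 CPM (SD, n = 3). The GABAergic class DD had the second highest mean of unc-25, at 2732 ± 806 CPM (SD, n = 4), and VD had 1559 ± 446 CPM (SD, n = 4). Neither DD nor VD had gpla-1 at the presence level.

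The beta-type subunit gene gplb-1 (WBGene00020722, chromosome V, 8470013 to 8471242, minus strand) was highest in DVC, a tail interneuron. The DVC libraries had 86.9, 253, 731 and 529 CPM, a mean of 400 ± 286 CPM (SD, n = 4). The SIA libraries had 5.01, 8.70, 50.6 and 183.2 CPM, a mean of 61.9 ± 83.5 CPM (SD, n = 4), or 21.4 CPM without SIAr243, and overlapped with DVC. The AVG libraries had 39.3, 37.5 and 62.8 CPM, a mean of 46.5 ± 14.1 CPM (SD, n = 3), and DVB followed with 26.5 ± 11.1 CPM (SD, n = 3), below AVG without overlap. DVC, AVG and DVB were the 3 classes with gplb-1 present, since SIA had libraries under 10 CPM. In both DVC and SIA the libraries with more gplb-1 had more of the class marker. The homeobox gene ceh-63 of DVC had 573, 1935, 4158 and 3186 CPM in those DVC libraries, and the homeobox gene ceh-24 of SIA had 96.3, 276, 990 and 5582 CPM in those SIA libraries. The part of sort purity in the spread of gplb-1 was not tested.

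**Figure D2:**
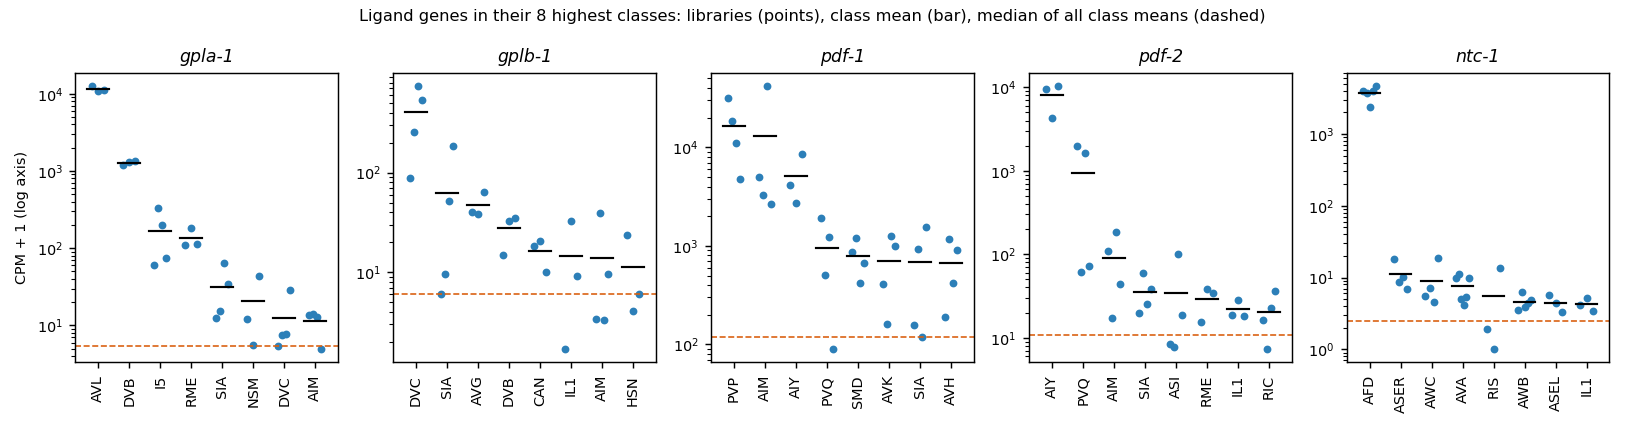
Levels of the 5 ligand genes in the 8 classes with the highest means of each, as CPM + 1 on a log axis, with 1 point per library, a bar at the class mean and a dashed line at the median of the 53 class means. AFD stands alone for ntc-1, AVL and DVB stand above the other classes for gpla-1, and the libraries of PVQ for pdf-2 fall apart into a high pair and a low pair.

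Among the receptors, the PDF receptor gene pdfr-1 (WBGene00015735, chromosome III, 6632837 to 6652083, minus strand) was the most widespread. The AIM libraries had 511, 295, 1178 and 445 CPM, a mean of 607 ± 391 CPM (SD, n = 4). The taste neuron ASER had 844, 481, 418 and 382 CPM, a mean of 531 ± 212.4 CPM (SD, n = 4). The tyraminergic RIM had 756, 544, 196.9 and 567.6 CPM, a mean of 516 ± 233 CPM (SD, n = 4). Without AIMr192 the mean of AIM was 417 CPM and ASER led. ASK followed at 514 ± 234 CPM (SD, n = 4), and neighbouring classes in this order, from AIM to SMB at 334 ± 212.8 CPM (SD, n = 5), all overlapped. The median class mean was 102 CPM, no library had a count of 0, and pdfr-1 was present in 49 classes, all but DVB, IL2, NSM and VC. The egg-laying motor neuron class VC was lowest, at 7.72 CPM. The top class held 8.14% of the sum over classes, a share exceeded by 54.5% of the tested genes, so pdfr-1 was not concentrated beyond the middle of the table. HSN, the other egg-laying class, had 47.3, 463 and 43.7 CPM, and its 2 low libraries had 32010 and 24008 CPM of the non-neuronal genes against 2128 CPM in the high one.

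The nematocin receptor gene ntr-1 (WBGene00011582, chromosome I, 12615921 to 12624241, plus strand) was highest in the head sensory classes ASK and ASER. The ASK libraries had 131.2, 223.3, 290 and 296 CPM, a mean of 235 ± 76.7 CPM (SD, n = 4). The ASER libraries had 307, 260, 181.8 and 170.99997 CPM, a mean of 230 ± 64.9 CPM (SD, n = 4), overlapping with ASK, and ASER led without either ASKr48 or ASKr49. Every ASER library lay above the AIN libraries, which had 26.3, 73.7 and 165.6 CPM as their lowest, median and highest of 6. ADL followed at 71.6 ± 55.5 CPM (SD, n = 4) and ASEL, the left taste neuron, at 36.9 ± 25.6 CPM (SD, n = 3), or 23.1 CPM without ASELr149. These 5 classes were the ones with ntr-1 present, and the median class mean was 1.29 CPM. The 3 ASEL libraries (64.7, 14.3 and 31.8 CPM) all lay below the 4 ASER libraries, and this left and right comparison, seen in the levels by which the genes were chosen, is a description. The chemoreceptor gene srbc-66, a marker of ASK, was at 23.5, 43.6, 97.4 and 82.9 CPM in the ASK libraries in the order given above, so the pair with more ntr-1 was also the pair with more srbc-66.

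The other nematocin receptor gene, ntr-2 (WBGene00008808, chromosome X, 14924974 to 14928954, minus strand), was low in nearly all classes. The PVQ libraries had 83.4, 4.38, 181.4 and 10.4 CPM, a mean of 69.9 ± 82.6 CPM (SD, n = 4), or 32.7 CPM without PVQr235. The ADL libraries had 49.6, 58.8, 9.39 and 12.5 CPM, a mean of 32.6 ± 25.3 CPM (SD, n = 4). The 2 PVD libraries had 21.3 and 40.98 CPM, and PVD was the only class with at least 10 CPM in every library. The order of PVQ, ADL, PVD, AVG (21.9 CPM, or 13.4 CPM without AVGr45) and ASI (15.9 CPM) is not resolved, since their libraries overlapped. A median class mean of 0.946 CPM and 30 libraries with a count of 0 put ntr-2 near the counting limit in most classes.

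**Figure D3:**
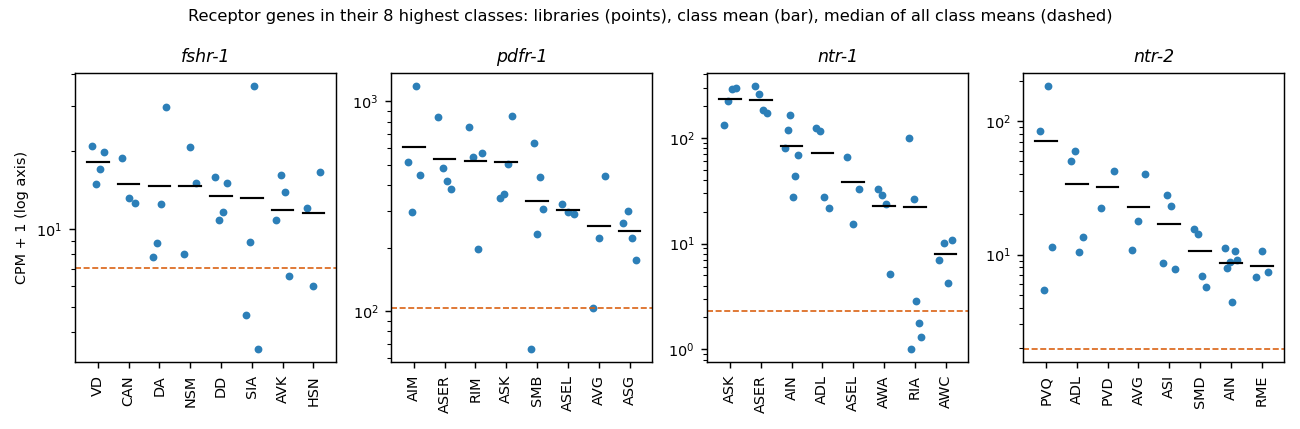
Levels of the 4 receptor genes in the 8 classes with the highest means of each, as CPM + 1 on a log axis, with 1 point per library, a bar at the class mean and a dashed line at the median of the 53 class means. The classes of fshr-1 step down gently and overlap, and in ntr-2 the libraries of PVQ and of ADL fall into a high and a low pair.

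The split within PVQ, AIM and ADL ran through several of the 9 genes at once. In PVQ the libraries PVQr233 and PVQr235 had pdf-2 at 1985 and 1617 CPM, pdf-1 at 1938 and 1244 CPM and ntr-2 at 83.4 and 181.4 CPM. The libraries PVQr234 and PVQr236 had pdf-2 at 61.1 and 71.8 CPM, pdf-1 at 510 and 88.4 CPM and ntr-2 at 4.38 and 10.4 CPM. The receptor gene pdfr-1 did not follow this split, at 86.2 and 124.3 CPM in the first pair of libraries, and 174.9998 and 25.6 CPM in the other pair. The chemoreceptor gene sra-6, a PVQ marker, was at 138.8 and 119.5 CPM in the first pair of libraries, and at 1.33 and 8.72 CPM in the other pair. The pan-neuronal sum was 14045 and 11946 CPM in the first pair, and 4190 and 1179 CPM in the other. In AIM the library AIMr192 had pdf-1, pdf-2 and pdfr-1 at 41558, 183.8 and 1178 CPM, the highest of the 4 for each, and its mbr-1, a transcription factor gene marking AIM, was at 173.2 CPM against 32.3 to 56.6 CPM in the other AIM libraries. In ADL the chemoreceptor gene srh-220 was at 34.9 and 32.4 CPM in ADLr171 and ADLr172, which had ntr-1 at 123.05 and 116 CPM, and at 5.14 and 7.89 CPM in ADLr173 and ADLr174, which had ntr-1 at 26.9 and 20.5 CPM. In PVP, for which no marker was listed, pdf-1 and the pan-neuronal sum had the same order over the 4 libraries, the sum being 9297, 8355, 5445 and 3130 CPM. These marker and tissue values moved with the genes within the classes, and their part in the spread was not tested.

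**Figure D4:**
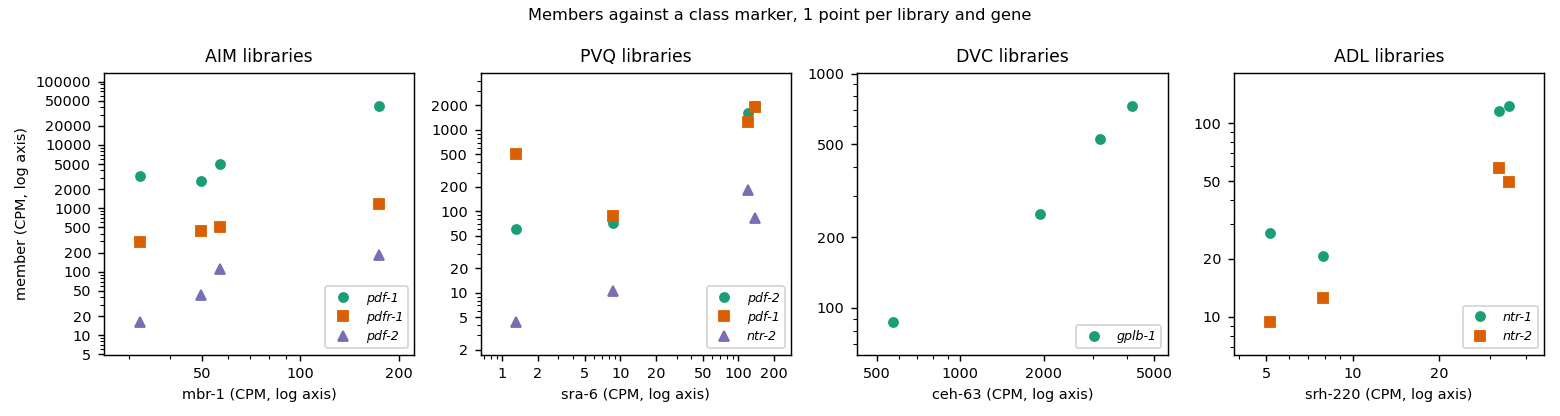
Levels of hormone and receptor genes against a marker of the class, both in CPM on log axes, with 1 point per library and gene, in the 4 libraries each of AIM, PVQ, DVC and ADL. The libraries with the highest marker level have the highest levels of these genes in all 4 panels, except ntr-2 in PVQ and in ADL, which is highest in the library with the second most marker.

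The glycoprotein hormone receptor gene fshr-1 (WBGene00008239, chromosome V, 9889837 to 9894850, plus strand) was low throughout and had no leading class that stood clear of the others. The VD motor neurons had 19.97, 13.9, 16.1 and 18.9 CPM, a mean of 17.2 ± 2.74 CPM (SD, n = 4). The CAN libraries had 17.8, 12.2 and 11.6 CPM, a mean of 13.9 ± 3.41 CPM (SD, n = 3). The DA motor neurons had 6.81, 7.82, 11.6 and 28.8 CPM, a mean of 13.7 ± 10.2 CPM (SD, n = 4), or 8.73 CPM without DAr90. These classes overlapped with each other and with NSM and DD, which followed at 13.6 and 12.4 CPM. VD and CAN were the only classes with at least 10 CPM in every library, the median class mean was 6.09 CPM, and ASK was lowest at 1.42 CPM. VD held 4.69% of the sum over classes, and 83.7% of the tested genes were more concentrated in their top class.

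Most of the listed genes of other tissues were above their median class mean in the classes that led for fshr-1, 24 of 26 in VD (all but col-19 and hlh-17) and 22 of 26 in CAN (all but hlh-17 and the germline genes glh-1, pgl-1 and mex-5). The share of all tested genes above their median in these classes is not given here, so these counts lack a background. The sum of the 4 muscle genes myo-3, hlh-1, mlc-1 and unc-15 had its highest class mean in CAN, at 2046 CPM with libraries of 1825 to 2221 CPM, and its second highest in VD, at 1653 CPM with libraries of 1014 to 2850 CPM, against a median class mean of 937 CPM. All 4 muscle genes had a count in every VD and CAN library, as had 25 of all 26 non-neuronal genes in each of these classes. The pan-neuronal sum was 1658 CPM in VD and 674 CPM in CAN, the lowest class, against a median class mean of 3607 CPM. Over the 53 classes the log2 level of fshr-1 and that of the muscle sum had a Pearson r of 0.72, and r was 0.56 with the intestine list, 0.56 with the pharynx list, 0.49 with the germline list, 0.32 with the coelomocyte list, 0.29 with the glia list, 0.28 with the hypodermis list and −0.53 with the pan-neuronal list. These points share preparation, depth and purity, and the part of RNA from other tissues in the level of fshr-1 was not tested. Without the 75 libraries that had more non-neuronal than pan-neuronal signal, a comparison chosen after the data had been seen, no class with 2 or more libraries left had fshr-1 in every library at 10 CPM. VD and CAN were among the 16 classes with too few libraries left.

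**Figure D5:**
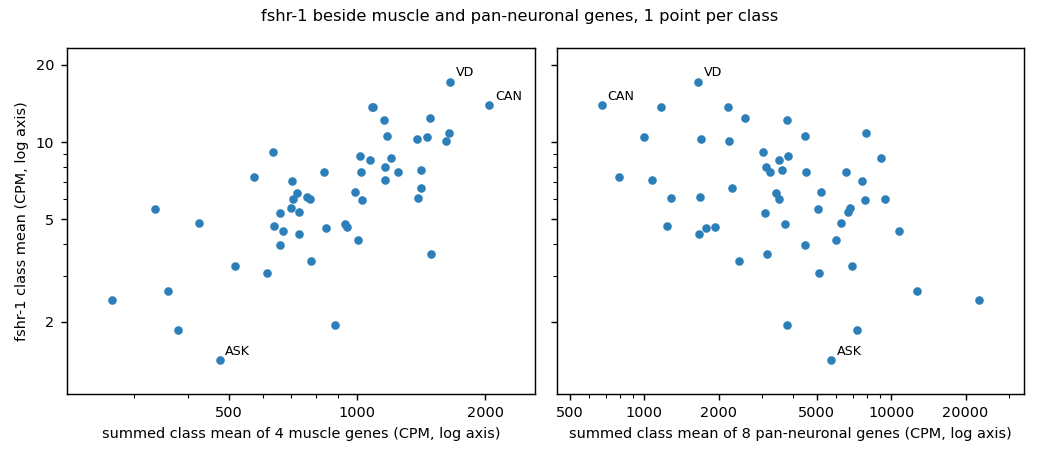
Class means of fshr-1 in CPM against the summed class means of 4 muscle genes and of 8 pan-neuronal genes, all on log axes, with 1 point per class. VD and CAN, with the most fshr-1, lie at 1653 and 2046 CPM of the muscle genes and at 1658 and 674 CPM of the pan-neuronal genes.

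Ligand and receptor were often found in the same class for PDF and in no class for the other systems at the presence level of 10 CPM in every library. Both pdf-1 and pdfr-1 were present in 48 classes, 94.1% of the pdf-1 classes and 98.0% of the pdfr-1 classes. All 10 classes with pdf-2 held pdfr-1, and all 10 held pdf-1. Of the 53 classes pdf-1 was present in 51 and pdfr-1 in 49. Large overlaps with these 2 genes therefore follow from the counts and say little of the pairs. The other lists were short, with 1 class for ntc-1, 5 for ntr-1, 1 for ntr-2, 5 for gpla-1, 3 for gplb-1 and 2 for fshr-1. Empty overlaps between lists that short also say little of the pairs, and some were not empty at 5 CPM. AFD, the ntc-1 class, had neither ntr-1 nor ntr-2, and its libraries had at most 1.83 CPM of ntr-1 and 0.610 CPM of ntr-2. No class held gpla-1 or gplb-1 together with fshr-1. The 2 hormone subunit genes were both present in DVB alone, 1 of the 5 gpla-1 classes and 1 of the 3 gplb-1 classes, where gpla-1 was at 1284 CPM and gplb-1 at 26.5 CPM. The classes that led for each subunit differed, since DVC had gpla-1 at 11.3 ± 10.9 CPM (SD, n = 4), or 5.88 CPM without DVCr167. The receptors ntr-1 and ntr-2 were present together in no class. ADL missed this only through ADLr173, with ntr-2 at 9.39 CPM. The ADL class means were 71.6 CPM for ntr-1 and 32.6 CPM for ntr-2. RME and SIA held the most genes, gpla-1, pdf-1, pdf-2 and pdfr-1 each, and VC held none of the 9.

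Across the 53 classes the 2 PDF genes were the most alike pair of those compared, with a Pearson r of 0.58 and a Spearman rho of 0.64 for class means of log2(CPM + 1). The ligand pdf-1 and its receptor pdfr-1 had r = 0.36 and rho = 0.40, pdf-2 and pdfr-1 had r = 0.22 and rho = 0.26, and gpla-1 and gplb-1 had r = 0.23 and rho = 0.39. The pair ntc-1 and ntr-1 had r = 0.08 and rho = 0.41, and ntr-1 and ntr-2 had r = 0.11 and rho = 0.17. These values describe 53 classes that share libraries, depth and sort purity.

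Set against gene length, the levels in the leading class were 15833 CPM per kb of exon for pdf-1 in PVP, 14081 for pdf-2 in AIY, 13136 for gpla-1 in AVL and 8499 for ntc-1 in AFD. The fifth ligand gene, gplb-1 in DVC, was at 609 CPM per kb. All 4 receptor genes were lower on this scale, at 185.9 CPM per kb for pdfr-1 in AIM, 152.5 for ntr-1 in ASK, 54.8 for ntr-2 in PVQ and 5.47 for fshr-1 in VD. On the same scale gpla-1 in AVL was thus above gplb-1 in any class.

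The genes with the most similar pattern were sought among all tested genes by Pearson r over the 53 class means. For gpla-1 it was nlp-6, a neuropeptide-like protein gene, with r = 0.87 and 53997 ± 19333 CPM in AVL (SD, n = 3), followed by F59B2.14 and fdgt-2 with r = 0.85 each and a rho of 0.18 and 0.19. For ntc-1 it was pyt-1, with r = 0.95 and 821 ± 524 CPM in AFD (SD, n = 5), followed by T06E4.7 with r = 0.94 and K09C6.3 with r = 0.93. For pdf-2 the closest were srbc-19, a chemoreceptor family gene, with r = 0.83, and H23L24.1 and srj-55 with r = 0.76 each, but the rho of these 3 was 0.08, 0.16 and 0.27. The AIY libraries had srbc-19 at 4.34, 3.47 and 46.8 CPM, so AIYr67 carried that level, and srj-55 averaged 1.93 ± 2.16 CPM in AIY (SD, n = 3). For pdf-1 they were C30G12.4 and the neuropeptide-like protein genes nlp-50 and nlp-49, with r of 0.63, 0.63 and 0.61. The closest to gplb-1 were C10B5.3, F43G6.4 and the non-coding C52E4.13, with r of 0.70, 0.69 and 0.68. For pdfr-1 they were T12A7.2, the tyramine receptor gene tyra-3 and H18N23.2, with r of 0.65, 0.63 and 0.63. For ntr-1 they were C01G5.7, F23D12.1 and T10G3.4, with r of 0.81, 0.79 and 0.77. For ntr-2 they were W09C2.10, T13C5.10 and C15H9.3, with r of only 0.57, 0.56 and 0.53, and the highest class means of W09C2.10 and T13C5.10 were 1.04 and 1.82 CPM. The closest to fshr-1 were R08E3.1, nhx-2 and lonp-2, with r of 0.85, 0.82 and 0.82, and nhx-2 encodes a sodium and proton exchanger known from the intestine.

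The machinery around these hormones was followed in the leading class of each of the 9 genes through 4 lists of genes outside the 9: 12 genes of peptide processing and dense-core vesicle release, 10 of Gs and cyclic AMP signalling, 9 of Gq signalling and 1 other secretin-family receptor, seb-3. The leading class is the one with the highest mean. For gplb-1, fshr-1, pdf-1, pdfr-1, ntr-1 and ntr-2 its libraries overlapped with those of the next class, so that lead is not resolved. All 32 listed genes passed the F-test over all classes, as did 95.4% of all tested genes, so passing it says little of them. Each leading class was then compared with the average of the 52 remaining classes, every class weighing the same, on the log2 scale (edgeR quasi-likelihood test, Benjamini-Hochberg adjustment over all 20427 genes, threshold 0.05). Over the 9 leading classes 96 of 288 such tests were higher and 19 were lower. In the same 9 comparisons 5.04% to 21.1% of all tested genes were higher and 0.622% to 9.16% were lower. With all libraries outside the leading class taken as 1 group, 30 were higher and 3 were lower. With DESeq2 size factors in place of TMM the median log2 fold of all genes moved by −0.23 in AVL, −0.19 in DVC, −0.20 in PVP, −0.11 in ASK and 0.30 in AIY, and by less than 0.1 in either direction in the other 4 classes.

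By edgeR with TMM, peptide processing genes were most often higher in AVL, DVC and ASK, which lead for gpla-1, gplb-1 and ntr-1. In AVL 11 of 12 were higher and none lower, with a median log2 fold of 2.46 for the list against −0.25 for all genes, while 14.1% of all tested genes were higher in AVL and 3.78% lower. With DESeq2 size factors 10.9% of all tested genes were higher in AVL and 5.25% lower, and 10 of the 12 were higher. The largest fold was that of pgal-1, which encodes an enzyme of peptide amidation, at 8430, 6597 and 10883 CPM in AVL, a mean of 8636 ± 2150 CPM (SD, n = 3) against a median of 660 CPM over the other class means, a log2 fold of 3.91 ± 0.30 (SE, adjusted p = 3.32e-24 by edgeR). The one processing gene not called in AVL was kpc-1, a furin-like protease gene. AVL also had the highest pan-neuronal sum of all classes, at 22701 CPM against a median class mean of 3607 CPM, and egl-3 stands in both lists. In DVC 9 of 12 processing genes were higher and 1, kpc-1, was lower, where 14.7% of all tested genes were higher and 3.85% lower (10.8% and 5.19% with DESeq2 size factors). Without the third library of each class 5 were higher in DVC. In ASK 8 of 12 were higher and none lower, with 18.9% of all tested genes higher and 8.04% lower, and 4 were higher without the third or without the fourth library of each class. With all other libraries as 1 group 7 of the 12 were higher in AVL, 2 in DVC and 1 in ASK.

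VD, the leading class of fshr-1, went the other way. Of the 12 processing genes 6 were lower in VD (egl-3, egl-21, aex-5, sbt-1, pghm-1 and pgal-1) and none higher, with a median log2 fold of −1.56 for the list against 0.04 for all genes, while 3.29% of all tested genes were lower and 7.58% higher. The largest drop was that of pghm-1, another gene of peptide amidation, at 120.6, 103, 82.8 and 128.9 CPM in VD, a mean of 108.7 ± 20.4 CPM (SD, n = 4) against a median of 591 CPM over the other class means, a log2 fold of −2.49 ± 0.58 (SE, adjusted p = 0.00143 by edgeR). The pan-neuronal sum of VD, which includes egl-3, was also low, at rank 46 of 53 classes, and its part in these differences was not tested. The adenylyl cyclase gene acy-4 was higher in VD, at 61.8 ± 12.3 CPM (SD, n = 4) against a median of 5.32 CPM over the other class means, a log2 fold of 3.15 ± 0.29 (SE, adjusted p = 5.48e-18 by edgeR). With all other libraries as 1 group none of these calls in VD held, with an adjusted p of 0.269 for pghm-1 and 0.304 for acy-4, whereas in the other 11 fits both genes passed and 6 or 7 processing genes were lower.

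By class mean PVP, AIY and AIM lead for the PDF genes and their receptor gene, AFD for ntc-1 and PVQ for ntr-2. The leads of PVP, AIM and PVQ are not resolved beyond the spread between libraries. In PVP 3 of 12 were higher, among 15.1% of all tested genes, and 1 was lower, among 5.89% (11.4% and 8.55% with DESeq2 size factors), and 1 was higher without the first library of each class or with all other libraries as 1 group. The lower one was aex-5, a proprotein convertase gene known for its part in defecation, at 5.00, 5.59, 5.83 and 6.92 CPM in PVP, a mean of 5.83 ± 0.801 CPM (SD, n = 4) against a median of 203.6 CPM over the other class means, a log2 fold of −5.03 ± 0.65 (SE, adjusted p = 5.40e-11 by edgeR). In AIY 2 of 12 were higher (egl-21 and pamn-1), among 5.04% of all tested genes, but 7 were with DESeq2 size factors, among 7.03%. In AIY 1 was lower, among 3.1% of all tested genes (1.56% with DESeq2 size factors), and that was kpc-1 at 31.1 ± 17.3 CPM (SD, n = 3) against a median of 69.8 CPM over the other class means, a log2 fold of −1.52 ± 0.39 (SE, adjusted p = 0.00385 by edgeR). In AIY seb-3 was higher, at 66.9 ± 38.1 CPM (SD, n = 3) against a median of 21.8 CPM, a log2 fold of 1.74 ± 0.40 (SE, adjusted p = 8.98e-04 by edgeR). Both AIY calls were lost with all other libraries as 1 group, at adjusted p of 0.409 for kpc-1 and 0.699 for seb-3, and each was lost without 1 library of each class, the second for kpc-1 (adjusted p = 0.177) and the first for seb-3 (adjusted p = 0.107). In AIM 5 of 12 were higher, among 6.11%, and none lower, among 0.622%, but 1 was higher without the third library of each class, which in AIM is AIMr192, and 1 by limma-voom. In AFD 5 of 12 were higher, among 21.1% of all tested genes, and none lower, among 9.16%. Both AFD counts were the same in every other fit, also with all other libraries as 1 group. In PVQ 5 of 12 were higher, among 17.3%, and none lower, among 1.23%, but none was higher by limma-voom and 2 were without the first or without the third library of each class.

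Single genes of the lists stood out in several leading classes. In AFD it was unc-31, which encodes the dense-core vesicle release factor CAPS, at 958, 492, 1714, 2215 and 2467 CPM, a mean of 1569 ± 833 CPM (SD, n = 5) against a median of 99.8 CPM over the other class means, a log2 fold of 3.80 ± 0.23 (SE, adjusted p = 1.91e-34 by edgeR). In AIM it was the adenylyl cyclase gene acy-2, at 228.4, 86.5, 354 and 149.4 CPM, a mean of 204.6 ± 115.4 CPM (SD, n = 4) and the highest of all classes, against a median of 6.37 CPM, a log2 fold of 4.75 ± 0.26 (SE, adjusted p = 3.79e-39 by edgeR). The gene acy-2 was also the most raised of the lists in PVP, at 44.5 ± 18.7 CPM (SD, n = 4), and in DVC, at 45.3 ± 25.5 CPM (SD, n = 4), ranking 5 and 4 among the classes, but not with all other libraries as 1 group, at adjusted p of 0.346 in PVP and 0.350 in DVC. In ASK it was rgs-3, which encodes a regulator of G protein signalling in sensory neurons, at 742, 949, 1937 and 1645 CPM, a mean of 1318 ± 565 CPM (SD, n = 4) against a median of 7.16 CPM, a log2 fold of 6.99 ± 0.25 (SE, adjusted p = 4.91e-62 by edgeR). In ASK seb-3 was lower, at 4.53 ± 2.92 CPM (SD, n = 4) against a median of 23.7 CPM, a log2 fold of −2.20 ± 0.52 (SE, adjusted p = 3.34e-04 by edgeR), which was lost with all other libraries as 1 group (adjusted p = 0.0739).

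The largest differences in the lower direction in DVC and AFD were smaller. The gene rgs-3 was lower in DVC, at 2.59 ± 0.963 CPM (SD, n = 4) against a median of 7.56 CPM over the other class means, a log2 fold of −2.13 ± 0.69 (SE, adjusted p = 0.0170 by edgeR). Over 12 other fits the adjusted p of rgs-3 ran from 4.62e-04 to 0.219, and the call was lost in 4 of them. The gene acy-1 was lower in AFD, at 28.8 ± 5.03 CPM (SD, n = 5) against a median of 61.3 CPM, a log2 fold of −1.15 ± 0.38 (SE, adjusted p = 0.0124 by edgeR), with a range of 4.64e-04 to 0.0862 over 12 other fits, 3 of which lost the call. In PVQ aex-5 was higher on average, at 994 ± 1027 CPM (SD, n = 4) against a median of 191.9 CPM, a log2 fold of 2.51 ± 0.31 (SE, adjusted p = 7.14e-12 by edgeR), but its libraries had 2150, 32.8, 1562 and 231.4 CPM, high in the same pair as pdf-2. That call was lost by limma-voom (adjusted p = 0.203) and with all other libraries as 1 group (adjusted p = 0.447). Of the 19 Gs and Gq genes 7 were higher in AVL (14.1% of all tested genes), 6 in DVC (14.7%), 3 in VD (7.58%), 7 in PVP (15.1%), 2 in AIM (6.11%), 8 in AFD (21.1%), 7 in ASK (18.9%) and 5 in PVQ (17.3%), and none in AIY (5.04%). In the other direction 3 were lower in PVP (5.89% of all tested genes), 3 in ASK (8.04%) and 1 each in DVC (3.85%), VD (3.29%) and AFD (9.16%), and none in AVL, AIY, AIM or PVQ.

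Some of the 9 genes share bases with a gene on the other strand, and how the counting treated strand is not given in the sources used here, so reads in the shared bases cannot be assigned with certainty. The gene ntc-1 overlaps tsp-14 by 10 bases, and tsp-14 was at 49.04 ± 24.1 CPM in AFD (SD, n = 5), rank 12 of the classes, against a median class mean of 28.9 CPM. The gene gpla-1 overlaps F58H1.8 by 25 bases, and F58H1.8 was at 5.67 CPM in AVL. The gene gplb-1 overlaps phf-30 by 60 bases, and phf-30 was at 9.87 CPM in DVC against a median class mean of 6.08 CPM. The gene ntr-1 overlaps flp-33 by 8 bases, with flp-33 at 4.09 CPM in ASK, and the non-coding genes inside ntr-1 (T07D10.12, on either strand) and inside pdfr-1 (C13B9.5 and M01G4.6) had at most 1.84 CPM in ASK and 0.154 CPM in AIM. Within 1000 bases of a member on the same chromosome lay F48B9.3, 982 bases from pdf-2 on the same strand, which had its highest class mean in AIY at 9.18 ± 0.629 CPM (SD, n = 3), and npr-40, 810 bases from ntr-2, which was highest in RIM.

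Label set and class cannot be told apart, since each class has libraries of only 1 set, so the order of classes was also read within each set. Among the 46 classes whose libraries name the kit, 7 of the 9 genes had the same leading class as over all 53, pdf-1 was highest in AIM and ntr-2 was highest in ADL. Among the other 7 classes, PVP led for pdf-1, PVQ for pdf-2 and ntr-2, DVB for gpla-1 and RME for pdfr-1. The RME mean of pdfr-1 was 233 ± 70.6 CPM (SD, n = 3). SIA led for gplb-1, fshr-1, ntc-1 and ntr-1, with ntc-1 at 2.36 CPM and ntr-1 at 3.24 CPM (1.65 CPM without SIAr241). SIAr243 carried most of the SIA mean of gplb-1, at 183.2 CPM against 5.01, 8.70 and 50.6 CPM. SIAr242 carried most of that of fshr-1, at 34.7 CPM against 3.65, 7.94 and 2.43 CPM. The SIA libraries overlapped with those of DVB for gplb-1 and of HSN for fshr-1, so neither lead is resolved.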

How the data were processed

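The authors deposited 1 table of raw counts, whole numbers without any normalization per the file headers, for 46927 genes with their exon positions and summed exon lengths, and its name carries the WormBase release WS289. Alignment with STAR 2.7.7a, molecular identifiers handled with UMI-tools 1.1.4 and counting with featureCounts of Subread 2.0.3 are named in the submitters' processing notes, which give no settings for strand or for reads with several places. Reads in overlapping genes are therefore uncertain, and intervals and limits cover counting error only. Another 14 per-sample columns match no library described here and were not used. Symbols and coordinates came from the Ensembl 115 annotation of WBcel235, whose gene spans equal those of the table for 99.8% of identifiers. The genome build used by the authors is not given in the sources used here.

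CPM values came from those deposited counts after TMM adjustment of the library sizes (edgeR 4.0.16, R 4.3.3). In 317 comparisons of libraries of the same class, identical counts were found in 0, and chi-square divided by its degrees of freedom was at least 5.11, so every library was kept as its own. Contrasts used edgeR's quasi-likelihood test on the 20427 genes kept by filterByExpr, with trended dispersions and Benjamini-Hochberg adjustment. Alternatives were DESeq2 1.42.0, limma-voom (limma 3.58.1), other scalings, no filter, other thresholds and libraries left out. The test was also run on simulated counts, in which genes had the same mean in all classes apart from a changed set. That run did not check the test on classes that differ as these do. The 9 genes, the gene lists and the markers were chosen with earlier results of these data known. Named genes are the 9, the 3 most alike genes of each, overlapping or adjacent genes, and in each leading class the listed gene with the largest called fold in each direction. Python 3.11.15 with pandas 2.3.3 was used elsewhere.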

Additional observations from a re-analysis of the deposited data

Results flagged for a closer look

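The 10 classes with the highest means of each gene gave 60 groups of 4 to 6 libraries. These were searched for a library far from the others of its class, and 5 were found. Chance gives about 1 group in 20 where values spread normally. That rate was not checked for CPM values, and the groups share libraries over genes, so 5 of 60 is not read as an excess. The pdf-1 level of AIMr192 was 41558 CPM against 2663 to 5055 CPM in the other 3 AIM libraries. The pdf-2 level of ASIr154 was 100.7 CPM against 6.77 to 17.8 CPM in the other 3 ASI libraries. The ntr-1 level of RIAr71 was 99.6 CPM against 0 to 25.3 CPM in the other 5 RIA libraries. The gpla-1 level of DVCr167 was 27.6 CPM against 4.42 to 6.72 CPM in the other 3 DVC libraries. The gpla-1 level of AIMr193 was the lowest of its class, at 3.91 CPM against 11.8 to 12.9 CPM in the other 3.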

How the results depend on the processing

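No called value changed its direction under any alternative. The level of gpla-1 in AVL was 9778 CPM with DESeq2 size factors, 9378 CPM with total counts and no TMM, and 16830 CPM with TMM over genes other than ribosomal RNA. With total counts fshr-1 in VD was at 27.2 CPM and ntc-1 in AFD at 2786 CPM, and ntr-2 was highest in PVD. With TMM without ribosomal RNA genes fshr-1 in VD was at 25.1 CPM, pdf-2 in AIY at 12441 CPM, ntc-1 in AFD at 5335 CPM and ntr-1 in ASK at 339 CPM, below ASER. Leaving out each library of the leading class in turn gave 11016 to 11772 CPM for gpla-1 in AVL, 289.5 to 504.1 CPM for gplb-1 in DVC, 16.3 to 18.3 CPM for fshr-1 in VD, 11439 to 20509 CPM for pdf-1 in PVP, 6950 to 9945 CPM for pdf-2 in AIY, 417 to 711 CPM for pdfr-1 in AIM, 3512 to 4074 CPM for ntc-1 in AFD, 214.8 to 269.7 CPM for ntr-1 in ASK and 32.7 to 91.8 CPM for ntr-2 in PVQ. Presence counts depended on the threshold. At 5 CPM in every library gplb-1 was present in 7 classes, fshr-1 in 11, pdf-2 in 30, ntc-1 in 2 (AFD and ASER) and ntr-2 in 6. At that level pdf-2 shared 30 classes with pdfr-1 and 30 with pdf-1, gpla-1 and gplb-1 shared 2 (DVB and SIA), and 1 class each was shared by ntc-1 and ntr-1 (ASER), gpla-1 and fshr-1 (I5), gplb-1 and fshr-1 (CAN), and ntr-1 and ntr-2 (ADL). At 20 CPM fshr-1 was present in 0 classes and pdf-2 in 2, both shared with pdfr-1 and with pdf-1 (2 and 2 classes), and the hormone subunit genes shared 0. By a class mean of 10 CPM gpla-1 was present in 8 classes, gplb-1 in 8, fshr-1 in 11, pdf-2 in 25, ntc-1 in 2 and ntr-2 in 5. By that mean pdf-2 shared 25 classes with pdfr-1 and 25 with pdf-1, gpla-1 and fshr-1 shared 3 (I5, NSM and SIA), gplb-1 and fshr-1 shared 3 (CAN, HSN and SIA), the subunit genes shared 4 (AIM, DVB, DVC and SIA), and ntc-1 with ntr-1 and ntr-1 with ntr-2 shared 1 each (ASER and ADL). With DESeq2 size factors ntr-2 was present in 3 classes (ADL, AVG and PVD). Without the 75 libraries with more non-neuronal than pan-neuronal signal, chosen after seeing the data, 37 classes were left, fshr-1 was present in 0, ntr-2 in 3 (ADL, AVG and PVD), and ntr-1 and ntr-2 shared 1 (ADL). VD and CAN, the only classes with fshr-1 present over all libraries, were not among these 37. Over the 46 classes that name the kit, r was 0.0889 for gpla-1 and gplb-1 and 0.73 for pdf-1 and pdf-2. The 96 higher and 19 lower calls of the pathway lists became 30 and 3 with all other libraries as 1 group, 73 and 17 by limma-voom, 89 and 25 by DESeq2's Wald test, 97 and 19 with DESeq2 size factors, 91 and 19 without a filter, and 70 to 96 and 16 to 19 when 1 library of each class was left out. The genes that differed among classes then numbered 17915 to 20097. No paired analysis was possible because the replicate numbers of the labels mark single libraries and do not link classes. Depth limits the lower levels in the shallower libraries. The median class means of ntr-2, ntr-1 and ntc-1 were 0.946, 1.29 and 1.48 CPM. They lie above the 0.643 CPM that 3 counts were worth in the median library, but below the 6.39 CPM of the shallowest.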
